A study of Homo sapiens with 18 samples.

Results

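Transcript levels of 9 genes were followed across 18 RNA-seq libraries of MDA-MB-436, a human triple-negative breast adenocarcinoma line. The genes encode ligands that tumour cells show to T cells, natural killer cells and macrophages (CD274, PDCD1LG2, CD276, CD70, PVR, LGALS9 and CD47) and a pair of membrane proteins that keep PD-L1 on the cell surface (CMTM4 and CMTM6). They were taken by symbol from both count tables, as 9 of 72147 genes present in either table, and all 9 were present in both. The cells differed in SMARCAL1, an enzyme that rewinds single-stranded DNA at stalled replication forks, and the series title names it as a regulator of innate immune signalling and of PD-L1.

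Libraries fell into 8 groups. TruSeq stranded total RNA was sequenced from 3 libraries of a control, whose genotype is given only as Control, and from 3 libraries of SMARCAL1 knockout clone 1. PLATE-seq, a pooled assay of polyadenylated RNA made directly from lysates, was run on 2 libraries each of a control, of SMARCAL1 knockout clones 1, 2 and 3, of cells given a control siRNA and of cells given siRNA against SMARCAL1. Each knockout group was 1 clone, so a change due to the knockout and a property of that clone cannot be told apart within a group. The labels call the libraries biological replicates without naming separate cultures, so p-values measure the spread between these libraries. The titles name MDA-MB-436 for every library, whereas the PLATE-seq samples carry a different cell line tag each (MDA-MB-437 up to MDA-MB-448). All were taken as MDA-MB-436.

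PD-L1, the product of CD274, and PD-L2, the product of PDCD1LG2, bind the inhibitory receptor PD-1 on T cells. Transcription of CD274 is known to respond to interferon gamma through JAK and STAT kinases and transcription factors and IRF1, and to factors such as AP-1, NF-kappa-B and MYC. Much of the control of PD-L1 lies after transcription, in trafficking, glycosylation and degradation of the protein, which RNA counts do not measure.

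CD274 lies on chromosome 9 at chr9:5450503-5470566 on the plus strand (GRCh38, GENCODE 29), and PDCD1LG2 follows on the same strand at chr9:5510570-5571254, with 40003 bases between them. The other genes lie at chr15:73683966-73714518 (CD276, plus strand), chr19:6583183-6604103 (CD70, minus strand), chr19:44643798-44663583 (PVR, plus strand), chr17:27629798-27649560 (LGALS9, plus strand), chr3:108043094-108091862 (CD47, minus strand), chr16:66614750-66696707 (CMTM4, minus strand) and chr3:32481312-32503408 (CMTM6, minus strand). All 9 are annotated as protein coding, and the counts are given per gene symbol. Exons of CMTM6 share 324 bases with CMTM7 on the opposite strand, those of PVR share 121 bases with CEACAM19 on the same strand, and those of LGALS9 share 294 bases with AC015688.4 on the same strand. The strand setting of the counting was not given in the sources used here, so reads from shared bases could not be assigned with certainty.

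The stretch upstream of the CD274 start is shown as the region searched for motifs of the factor families named above. RefSeq promoter windows (GRCh38.p14, 300 bases, from 250 before to 50 after each start) were matched for 7 of the 9 genes, in 8 windows. The stretch of 211 bases printed here, chr9:5450292-5450502 on the plus strand, ends before the annotated gene start. Capitals mark matches to an IRF motif (GAAA, any 2 bases, GAAA) and to a STAT motif (TTC, any 3 bases, GAA), searched on both strands.
CD274: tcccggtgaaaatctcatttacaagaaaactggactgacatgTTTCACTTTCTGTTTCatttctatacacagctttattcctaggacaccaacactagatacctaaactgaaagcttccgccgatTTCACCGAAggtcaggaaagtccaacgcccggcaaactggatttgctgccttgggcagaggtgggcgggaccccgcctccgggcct
The first block in capitals holds 2 overlapping IRF matches, both on the minus strand, and the second is the STAT match. A match to the IRF motif was present in 3.57% of 35116 RefSeq promoter windows and a match to the STAT motif in 7.66%. Among the 7 matched genes LGALS9 was the other with an IRF match, and CD274 was the one with a STAT match. The AP-1 motif (TGA, any base, TCA), present in 7.71% of all windows, had 0 matches in the 8 windows. The NF-kappa-B motif (GGGA, any 4 bases, CC), present in 25.6% of all windows, matched in CD274 downstream of the stretch shown, and in CD276, LGALS9 and PVR. These matches describe letters in a window and not bound sites.

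TruSeq libraries held 10257584 to 19270648 counts and PLATE-seq libraries 807861 to 3068887. Levels are given as CPM, counts divided by library size in units of 1e6, on library sizes scaled by the trimmed mean of M-values (TMM), and the assays were normalized and tested separately. A count of 3 in a library, the limit that a count of 0 allows, corresponded to 0.156 to 0.292 CPM in TruSeq and to 0.978 to 3.71 CPM in PLATE-seq, for counting error only. The targeted gene SMARCAL1 had 163, 174 and 292 counts in the TruSeq control libraries and 144, 254 and 211 in knockout clone 1, so the transcript did not mark the knockout. In PLATE-seq it had 0 and 3 counts in the control, 3 and 6 in clone 1, 8 and 3 in clone 2, and 16 and 44 in clone 3, or 0 and 3.72 CPM in the control against 7.11 and 13.4 CPM in clone 3. The transcript was therefore not lower in the PLATE-seq libraries labelled knockout than in their control, and it does not check those labels. It had 7 and 8 counts with the control siRNA and 0 in both libraries with siRNA against it (edgeR adjusted p = 0.573). The share of spike-in counts separated the PLATE-seq libraries by replicate number, at 0.0230% to 0.0534% in the 6 libraries numbered 1 and 0.000205% to 0.00136% in the 6 numbered 2, and each group held 1 of each. TruSeq libraries also differed in how many annotated features had a count. Control replicates 1 and 2 and knockout replicate 1 detected 36042 to 39068 features, and control replicate 3 and knockout replicates 2 and 3 detected 28621 to 30653. The libraries with more features were the shallower ones, at 10257584 to 12172405 counts against 15689281 to 19270648. Their mitochondrial share was 0.637% to 0.891% against 0.302% to 0.370%. The feature split was therefore also a split by depth and by mitochondrial share. Mesenchymal or basal markers and luminal epithelial markers were listed together. Of the mesenchymal or basal ones, VIM was at 1237 CPM in the TruSeq control. Of the luminal ones, KRT18 was at 718 CPM in that control, while KRT19 was at 0.0853, ESR1 at 0.512 and PGR at 0.248 CPM. These markers were not all alike between the groups: 3 of 8 tested rose in clone 1 and 0 fell by adjusted p, beside 6.27% of all genes tested. Among those that did not pass, EPCAM had the largest change, a log2 fold change of -0.74 (SE 0.22, edgeR adjusted p 0.0895). The rest that did not pass were KRT8 (-0.26), VIM (-0.19), KRT18 (-0.12) and ERBB2 (0.30). The basal keratin KRT17 had 12.99 ± 1.01 CPM in the control and 44.6 ± 6.03 in clone 1 (SD, n = 3), a log2 fold change of 1.78 (SE 0.12, edgeR adjusted p 0.000177) that was called in every omission of 1 library. CAV1 rose by 0.46 (edgeR adjusted p 0.00643) and CDH2 by 0.41 (edgeR adjusted p 0.0111). Both calls were lost without control replicate 2 (edgeR adjusted p 0.0601 and 0.0834), and that of CDH2 also without knockout replicate 2 (0.0588) or 3 (0.0583).

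In TruSeq the 9 genes spanned a wide range of levels. Per kilobase of annotated exon, CMTM6 was highest at a mean of 19.0 CPM per kilobase over the 6 libraries, followed by PVR at 16.6. CD47 (10.5) and CD276 (10.4) came next, then CD70 (6.71) and CMTM4 (4.43). PDCD1LG2 (1.24) and CD274 (0.775) were lower, and LGALS9 (0.0615) was lowest. The ranges over libraries overlapped between neighbours in this order for CMTM6 and PVR, for CD47 and CD276, for CD70 and CMTM4, and for PDCD1LG2 and CD274, so these 4 pairs were not separated beyond their spread. CD70 also reached into the range of CD276. LGALS9, at 2 to 6 counts a library, had no level overlapping any of the others. In these TruSeq libraries the transcripts of the PD-L1 partners CMTM6 and CMTM4 thus lay above that of PD-L1 itself.

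**Figure D1:**
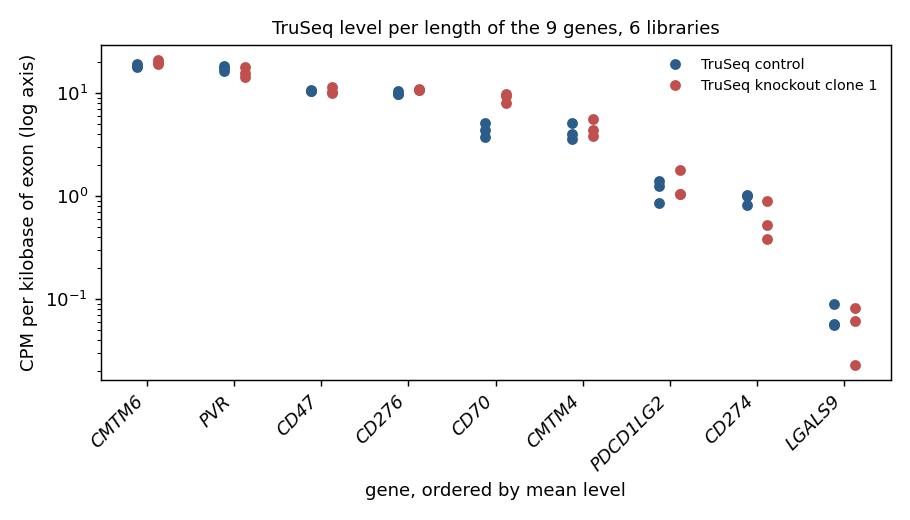
TruSeq level of each gene in CPM per kilobase of exon, on a log axis, for 3 control libraries (blue) and 3 libraries of knockout clone 1 (red); each point is 1 library. CMTM6 and PVR sit highest, PDCD1LG2 and CD274 near 1, and LGALS9 lies below all others.

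The first comparison asked whether checkpoint transcripts differed between knockout clone 1 and its control in TruSeq. CD70, a TNF-family ligand of CD27 on lymphocytes, rose in the knockout clone, and no other member passed the test. CD274 was lower on average in the clone without passing it, and its neighbour PDCD1LG2 was not lower. Members measured with many counts (CD276, CD47, CMTM6 and PVR) differed by little, with narrow intervals. Of the 8 members tested 1 was called (edgeR quasi-likelihood test, Benjamini-Hochberg adjusted p under 0.05), beside 6.27% of all 17371 genes tested. At an unadjusted p under 0.05 the count was also 1, beside 20.4%. The median log2 fold change was 0.11 over the 8 members and -0.0044 over all genes tested.

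CD70 had 67, 96 and 121 counts in control replicates 1, 2 and 3 and 132, 245 and 228 in the knockout replicates. These were 5.72, 7.75 and 6.66 CPM in the control and 12.2, 14.2 and 15.1 CPM in the clone, or 6.71 ± 1.02 against 13.8 ± 1.46 CPM (SD, n = 3). Every knockout library lay above every control library. The log2 fold change was 1.05 (SE 0.15, 95% interval 0.71 to 1.39), with an edgeR adjusted p of 0.00591. Leaving out each library in turn gave 0.95 to 1.16 on the log2 scale with edgeR adjusted p from 0.00466 to 0.0416. The difference was 0.85 within the 3 libraries with more features and 1.13 within the 3 with fewer, where 2 libraries were compared with 1. KRT17, CAV1 and CDH2 rose in the same clone, and their part in the CD70 difference was not tested.

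CD274 had 48, 52 and 61 counts in the control and 40, 37 and 24 in the clone. In CPM these were 4.10, 4.20 and 3.36 in the control and 3.71, 2.15 and 1.59 in the clone, with means of 3.88 ± 0.458 and 2.48 ± 1.10 (SD, n = 3). Knockout replicate 1 lay inside the control range and knockout replicates 2 and 3 lay below it. The log2 fold change was -0.67 (SE 0.31, 95% interval -1.37 to 0.02), with an edgeR adjusted p of 0.261. The result depended on single libraries. Without knockout replicate 1 the log2 fold change was -1.04 (edgeR adjusted p 0.0488), which would make CD274 a second call among the members. The knockout libraries then left, replicates 2 and 3, were both on the side with fewer features. Without knockout replicate 3 the log2 fold change was -0.43 (edgeR adjusted p 0.573), and the other omissions lay between these values. Within the 3 libraries with more features the log2 fold change was -0.17, and within the 3 with fewer it was -0.83. CD274 also followed the feature split itself, which was also a split by depth. It was at 3.71 to 4.20 CPM in the libraries with more features and 1.59 to 3.36 CPM in those with fewer. With a term for the side of this split in the fit the knockout difference was -0.51 (edgeR adjusted p 0.147).

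PDCD1LG2 had 39, 37 and 37 counts in the control and 46, 43 and 37 in the clone, which gave 3.33, 2.99 and 2.04 CPM against 4.26, 2.50 and 2.45 CPM. The groups overlapped, and the highest library of the clone was again replicate 1. The log2 fold change was 0.13 (SE 0.30, 95% interval -0.56 to 0.82), with an edgeR adjusted p of 0.858, and its sign changed when control replicate 3 (-0.07) or knockout replicate 1 (-0.15) was left out. Like CD274, PDCD1LG2 separated the libraries with more features (2.99 to 4.26 CPM) from those with fewer (2.04 to 2.50 CPM). CMTM4 separated them in the opposite direction, at 29.1 to 32.8 CPM and 35.7 to 45.5 CPM. These 3 members were the ones of 9 with ranges that did not overlap between the sides, beside 30.4% of all genes tested.

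The other B7-family member, CD276, which encodes B7-H3, had 54.2, 54.2 and 57.5 CPM in the control and 59.1, 60.9 and 59.5 CPM in the clone. The ranges did not overlap, but the difference was small, at a log2 fold change of 0.11 (SE 0.07, edgeR adjusted p 0.400). CD47, which signals to macrophages through SIRP-alpha not to engulf the cell, had 86.7, 85.1 and 87.1 CPM in the control and 92.8, 83.3 and 82.2 CPM in the clone. Its log2 fold change was -0.0049 (SE 0.07, 95% interval -0.17 to 0.16; edgeR adjusted p 0.979). PVR, the ligand of TIGIT, CD96 and CD226 on T and natural killer cells, had 57.8, 60.8 and 63.9 CPM in the control and 55.4, 62.7 and 49.7 CPM in the clone. The groups overlapped, and the log2 fold change of PVR was -0.12 (SE 0.10, edgeR adjusted p 0.544).

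The PD-L1 partners were measured at depth in TruSeq. CMTM6 had 83.5, 79.8 and 78.2 CPM in the control and 92.2, 84.1 and 85.1 CPM in the clone. Each knockout library exceeded each control library, but by little, with a log2 fold change of 0.11 (SE 0.07, edgeR adjusted p 0.407). CMTM4 had 29.1, 32.8 and 41.6 CPM in the control and 31.1, 45.5 and 35.7 CPM in the clone. Its groups overlapped, with a log2 fold change of 0.12 (SE 0.17, edgeR adjusted p 0.760), and within the 3 libraries with fewer features it was -0.03. Control and clone ranges did not overlap for 3 of the 8 members tested (CD70, CD276 and CMTM6), beside 26.3% of all genes tested.

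LGALS9, which encodes galectin-9, a ligand of TIM-3, was too low to be tested. It had 6, 4 and 6 counts in the control and 5, 6 and 2 in the clone. The summed 13 counts against 16 gave a ratio per total of 0.786 with an exact (Clopper-Pearson) 95% interval of 0.348 to 1.74, which covers counting error only. Its near-identical copies LGALS9B and LGALS9C held 11 and 14 counts in the control and 3 and 8 in the clone, and reads could be split among the 3 genes.

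**Figure D2:**
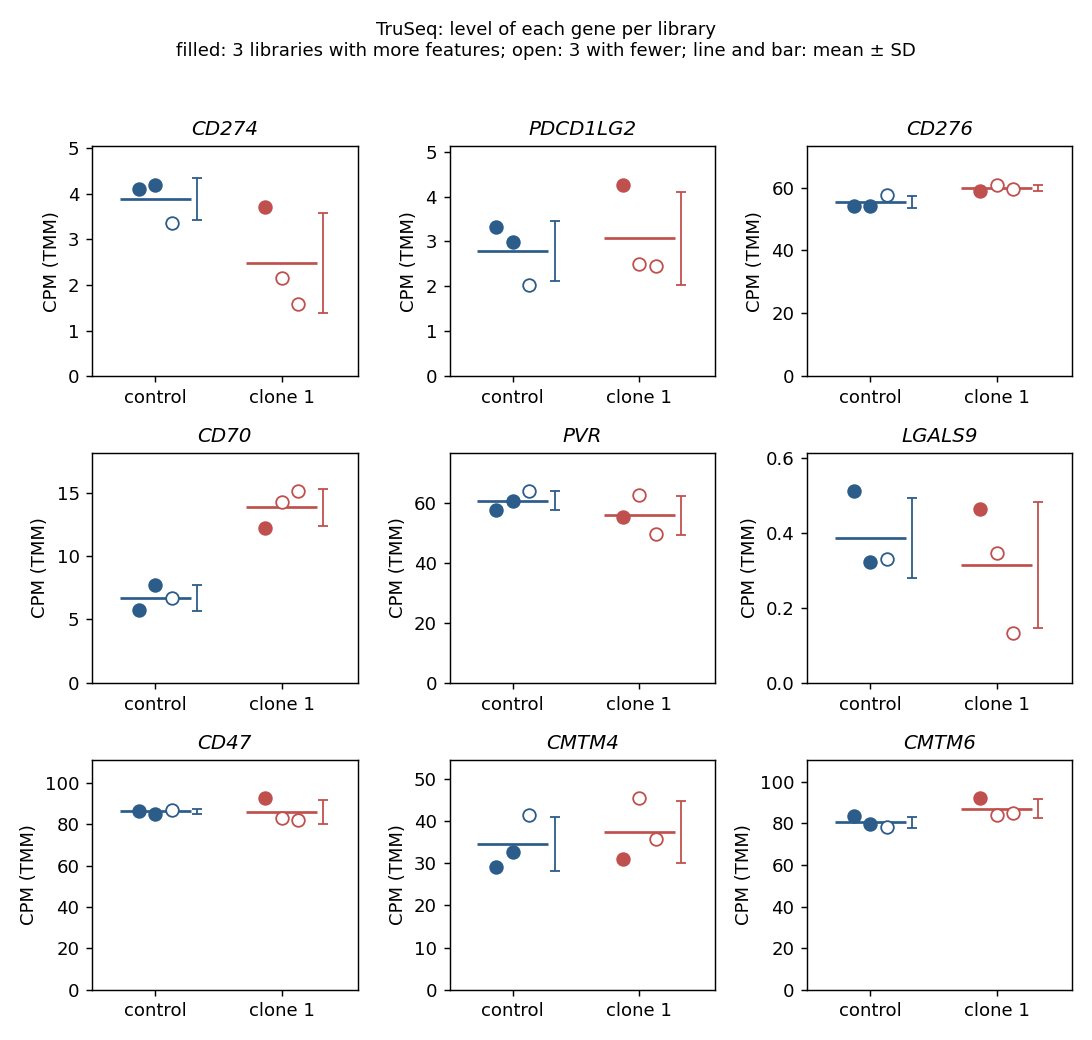
CPM of each gene in the 6 TruSeq libraries, by group, on axes that start at 0; points are libraries, filled for the 3 with more features and open for the 3 with fewer, with the group mean as a line and the SD as a bar (n = 3). CD70 is higher in every library of clone 1, and CD274 is lower in the open points than in the filled ones.

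Spread over the 6 TruSeq libraries differed between members. The highest library exceeded the lowest 1.12-fold for CD276, 1.13-fold for CD47 and 1.18-fold for CMTM6. It did so 2.64-fold for CD70 and 2.64-fold for CD274, of which CD70 followed the groups and CD274 did not do so without overlap. The 3 genes with a pattern most like that of CD274 over the 6 libraries, among 10292 genes compared, were WEE1 (Pearson r of log2 CPM 0.990), SNHG4 (0.989) and ANKRD13C (0.988). The libraries share the feature split and 1 pair of groups, and these values are a description.

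The second comparison asked the same in PLATE-seq, where 3 clones shared 1 control. None of the 6 members tested (CD274, CD276, PVR, CD47, CMTM4 and CMTM6) passed the test for the mean of the 3 clones, for any clone alone, or among the clones. The edgeR test called 0.198% of 8595 genes for the clone mean, 0% for clone 1, 0.0349% for clone 2, 0.663% for clone 3 and 0.71% for the differences among clones. At an unadjusted p under 0.05 the count of members was 0 for the clone mean (beside 10.1% of all genes), clone 1 (8.19%), clone 2 (9.66%) and clone 3 (11.9%), and 1 among the clones (11.3%). DESeq2 called 0 members in all of them. The depth left wide intervals: CD274 had a median of 13.5 counts a library.

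In PLATE-seq CD274 had 12.2 and 2.48 CPM in the control, from 11 and 2 counts. Clone 1 had 7.72 and 7.64 CPM, clone 2 had 9.36 and 12.3, and clone 3 had 7.999 and 19.1. The control libraries spanned the values of clone 1 and nearly those of clone 2, so no clone was separated from the control. The log2 fold change was 0.04 (SE 0.79) in clone 1, 0.53 (SE 0.80) in clone 2 and 0.87 (SE 0.75) in clone 3. The mean change was 0.48 (SE 0.66, 95% interval -0.89 to 1.85; edgeR adjusted p 0.860), and it moved from -0.22 to 2.04 as single libraries were left out, with 2.04 without control replicate 1. For clone 1, sequenced by both assays, the 95% interval in PLATE-seq ran from -1.58 to 1.67 and held the TruSeq value of -0.67.

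CMTM6 was the member that differed most among clones by unadjusted p. It had 18.8 and 18.6 CPM in the control, 32.7 and 38.2 in clone 1, 22.9 and 27.7 in clone 2, and 17.8 and 6.07 in clone 3. Clones 1 and 2 lay above the control and clone 3 below it, with log2 fold changes of 0.92 (SE 0.61), 0.43 (SE 0.63) and -0.67 (SE 0.63). The test among the clones gave an edgeR adjusted p of 0.401 (unadjusted p 0.0397), so the order of the clones did not pass the threshold. CMTM4 had 6.64 and 16.1 CPM in the control, 13.1 and 12.01 in clone 1, 3.12 and 8.20 in clone 2, and 6.22 and 5.16 in clone 3. The control libraries held both of clone 1 between them and both of clone 3 lay below them, and the mean log2 fold change was -0.61 (SE 0.69, edgeR adjusted p 0.816).

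CD276 had 6.64 and 6.20 CPM in the control, 5.35 and 9.28 in clone 1, 12.48 and 12.3 in clone 2, and 8.89 and 4.25 in clone 3. The libraries of clone 2 lay above the control, with a log2 fold change of 0.94 (SE 0.90, edgeR adjusted p 0.778). PVR had 40.9 and 39.7 CPM in the control, 50.5 and 30.6 in clone 1, 38.5 and 23.6 in clone 2, and 26.2 and 23.4 in clone 3. Clones 2 and 3 lay below the control, and the log2 fold change in clone 3 was -0.70 (SE 0.42, edgeR adjusted p 0.536). CD47, the member with the most counts, had 204.6 and 157.5 CPM in the control, 177.7 and 168.2 in clone 1, 201.8 and 94.3 in clone 2, and 198.6 and 147.6 in clone 3. Its groups overlapped in every clone, and its mean log2 fold change was -0.14 (SE 0.31, 95% interval -0.77 to 0.49).

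Counts of members that did not overlap with the control must be read with groups of 2 in mind. They were 1 of 6 in clone 1 (CMTM6), beside 39.2% of all genes tested, 3 of 6 in clone 2 (CMTM6, CD276 and PVR), beside 38.3%, and 3 of 6 in clone 3 (CMTM6, CMTM4 and PVR), beside 42%. Over all clones together 0 of 6 lay clear of the control, beside 12% of all genes.

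The remaining 3 members were too low in PLATE-seq to be tested. CD70 had 12 counts over the 12 libraries and was at 0 in 7 of them. It had 0 and 0 counts in the control, 0 and 1 in clone 1, 0 and 0 in clone 2, and 2 and 5 in clone 3, too few counts to test. In CPM clone 1 had 0 and 0.546 in PLATE-seq, beside 12.2 to 15.1 in TruSeq, and the difference between the separately normalized assays was not tested. PDCD1LG2 had 0 and 0 counts in the control, 0 and 3 in clone 1, 2 and 0 in clone 2, and 4 and 3 in clone 3. LGALS9 had 0 and 0 counts in the control, 4 and 3 in clone 1, 0 and 0 in clone 2, and 0 and 3 in clone 3. With the control at 0, the lower 95% bounds of the ratio per total were below 1 for each of these genes in every clone with a count, and no fold is given.

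**Figure D3:**
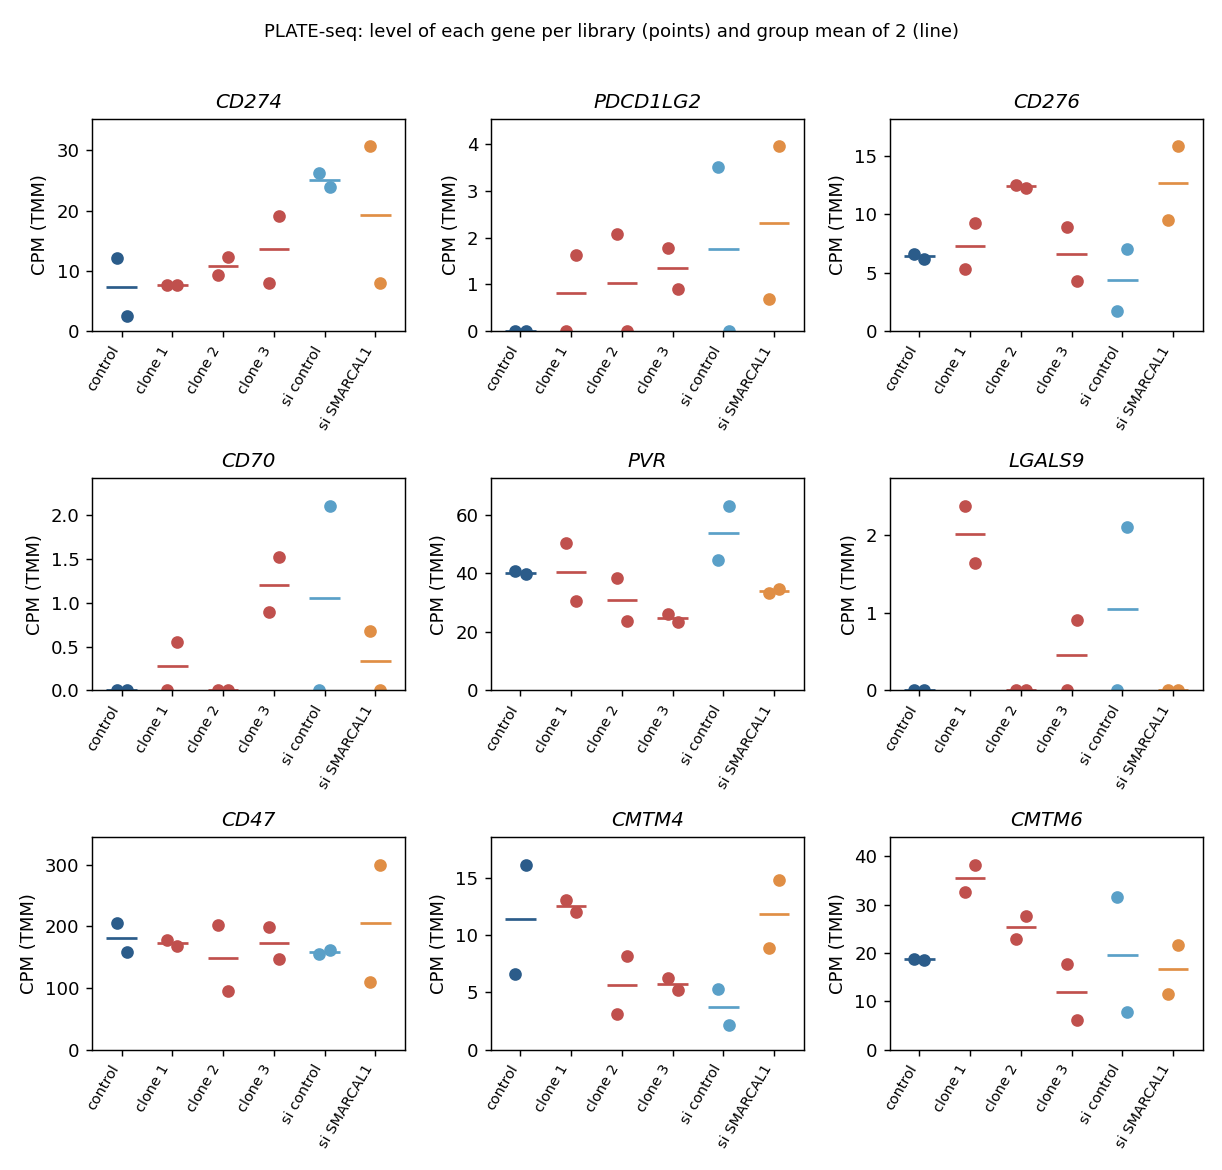
CPM of each gene in the 12 PLATE-seq libraries (points) with the mean of each group of 2 (lines), on axes that start at 0. CD274 is highest in both siRNA control libraries and 1 siRNA SMARCAL1 library, CMTM6 is highest in clone 1, and PDCD1LG2, CD70 and LGALS9 are at 0 in 5, 7 and 8 libraries.

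The third comparison set siRNA against SMARCAL1 beside the control siRNA. No member of the 6 tested was called by edgeR, beside 0% of the 8595 genes tested, and at an unadjusted p under 0.05 the count was also 0, beside 6.33%. DESeq2 called 0 members too. CD274 had 26.3 and 23.9 CPM with the control siRNA and 30.6 and 7.91 CPM with siRNA against SMARCAL1. The treated libraries lay on either side of the controls, and the log2 fold change was -0.34 (SE 0.66, 95% interval -1.71 to 1.03; edgeR adjusted p 0.969). CMTM4 had 5.26 and 2.11 CPM with the control siRNA and 8.85 and 14.8 CPM with siRNA against SMARCAL1, a log2 fold change of 1.68 (SE 0.90, edgeR adjusted p 0.824). CD276 had 1.75 and 7.02 CPM against 9.53 and 15.8 CPM, a log2 fold change of 1.46 (SE 0.88, edgeR adjusted p 0.845). PVR had 44.7 and 63.2 CPM against 33.3 and 34.6 CPM, a log2 fold change of -0.67 (SE 0.41, edgeR adjusted p 0.851). CMTM4, CD276 and PVR were the 3 of 6 members with groups that did not overlap, beside 37.4% of all genes tested.

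CD47 had 154.3 and 160.7 CPM with the control siRNA and 110.2 and 299.5 CPM with siRNA against SMARCAL1, which lay on either side, with a log2 fold change of 0.37 (SE 0.37). CMTM6 had 31.6 and 7.72 CPM against 11.6 and 21.7 CPM, which overlapped, with a log2 fold change of -0.24 (SE 0.62). The untested members stayed near the floor. PDCD1LG2 had 4 and 0 counts with the control siRNA and 1 and 4 with siRNA against SMARCAL1, a ratio per total of 1.21 (exact 95% interval 0.261 to 6.12). CD70 had 0 and 3 counts against 1 and 0, a ratio of 0.324 (exact 95% interval 0.00616 to 4.03), and LGALS9 had 0 and 3 against 0 and 0.

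Knockout and siRNA changes were compared directly in PLATE-seq. The difference between the mean change of the clones and the siRNA change was called for 0 of 6 members by edgeR, beside 0% of all genes tested, for 0 at an unadjusted p under 0.05, beside 7.76%, and for 0 by DESeq2. It was widest for CMTM4, at -2.29 on the log2 scale (SE 1.13, 95% interval -4.61 to 0.04; edgeR adjusted p 0.643, unadjusted p 0.0536). For CD274 it was 0.83 (SE 0.94, 95% interval -1.11 to 2.76). It was 0.46 (SE 0.82) for CMTM6, -0.51 (SE 0.48) for CD47, -1.08 (SE 1.16) for CD276 and 0.31 (SE 0.54) for PVR, all with intervals that held 0.

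The control groups of PLATE-seq differed in the CD274 values of their libraries, without passing the test by adjusted p. Both libraries with the control siRNA, at 26.3 and 23.9 CPM, lay above the control without siRNA, at 12.2 and 2.48 CPM. The log2 difference was 1.74 (SE 0.75, 95% interval 0.19 to 3.29), with an unadjusted p of 0.0296 and an edgeR adjusted p of 0.574, and it was 3.29 without control replicate 1 and 1.03 without control replicate 2. CD274 was the 1 member of 6 with an unadjusted p under 0.05, beside 7.78% of all genes tested. By adjusted p 0 of 6 members were called by edgeR, beside 0.0116% of all genes, and 0 by DESeq2. This difference between control groups was larger than the fitted CD274 change of any clone or of the SMARCAL1 siRNA, although the differences between these changes were not tested. CMTM4 and PVR were the other members that did not overlap between the control groups, at log2 differences of -1.63 (SE 0.92) and 0.42 (SE 0.42), for 3 of 6 members beside 36.6% of all genes. CMTM6 (0.05, SE 0.64), CD47 (-0.20, SE 0.38) and CD276 (-0.50, SE 0.94) overlapped. The 3 untested members had 0 counts in both control libraries, and PDCD1LG2 had 4 and 0, CD70 0 and 3 and LGALS9 0 and 3 with the control siRNA.

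**Figure D4:**
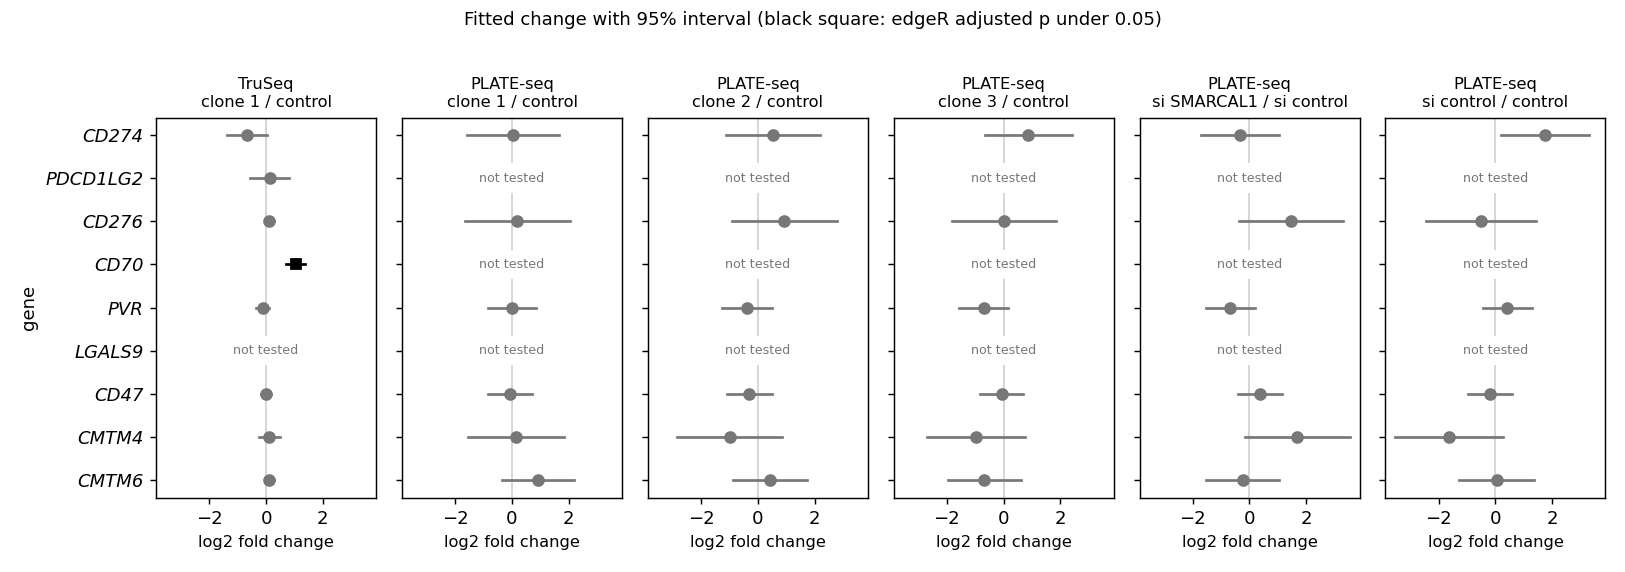
Fitted log2 fold change of each gene (rows) with its 95% interval in 6 comparisons (panels); black squares mark an edgeR adjusted p under 0.05 and grey circles the rest, and genes removed by the filter on low counts are written as not tested. CD70 in TruSeq is the 1 black square, and the PLATE-seq intervals of CD274, CD276, CMTM4 and CMTM6 are several log2 units wide.

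Other genes of the same pathways were read from lists of related genes in TruSeq. Over all 17371 genes tested 688 rose and 401 fell, which together are the 6.27% beside which each list count is given. Of 18 other checkpoint and costimulatory ligands tested 2 rose and 0 fell in clone 1. CD24, a ligand of SIGLEC10 on macrophages, rose from 17.4 ± 1.31 to 28.6 ± 0.887 CPM (SD, n = 3), a log2 fold change of 0.72 (SE 0.09, edgeR adjusted p 0.00379). LGALS3, a galectin, rose by 0.44 on the log2 scale (edgeR adjusted p 0.0478), a call that was lost in 5 of the 6 fits that left out 1 library, where its adjusted p rose to at most 0.182, and held without knockout replicate 1. The median log2 fold change of the list was 0.20.

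Among 28 tested genes known to act on CD274 transcription 1 rose and 3 fell, beside 6.27% of all genes in either direction. EGFR rose by 0.37 (edgeR adjusted p 0.0197). IFNGR1, the ligand-binding chain of the interferon gamma receptor, fell by 0.39 on the log2 scale (edgeR adjusted p 0.0378), MYC fell by 0.34 (0.0190) and the AP-1 member FOSL2 fell by 0.30 (0.0349). The list had a median log2 fold change of 0.07. Each of these 4 calls was lost when some single library was left out, in 4 of 6 omissions for EGFR (edgeR adjusted p up to 0.127), 5 for IFNGR1 (up to 0.140), 3 for MYC (up to 0.0865) and 6 for FOSL2 (up to 0.143). Knockout replicates 2 and 3 and control replicate 2 were the libraries whose omission ended all 4 calls. The other 24, which include the kinases JAK1 and JAK2, did not pass the test.

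Among 23 tested genes that handle the PD-L1 protein 3 rose and 0 fell, beside 6.27% of all genes in either direction, with a median log2 fold change of 0.06. ADAM10 and ADAM17, proteases that shed PD-L1 from the surface, rose from 107.0 ± 5.24 to 141.7 ± 8.74 CPM and from 85.8 ± 2.48 to 110.4 ± 3.50 CPM (SD, n = 3). Their log2 fold changes were 0.40 (edgeR adjusted p 0.0155) and 0.36 (0.0146). CUL3, the scaffold of a ubiquitin ligase of PD-L1, rose by 0.35 (edgeR adjusted p 0.0494). Each of these calls was lost in some omissions of 1 library, in 3 of 6 for ADAM10 and for ADAM17 (control replicate 2 and knockout replicates 2 and 3, with edgeR adjusted p up to 0.0990 and 0.0849) and in 6 of 6 for CUL3 (up to 0.178).

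THBS1, which encodes the CD47 ligand thrombospondin-1, rose from 59.97 ± 4.75 to 109.2 ± 5.30 CPM (SD, n = 3). Its log2 fold change was 0.86 (SE 0.08, edgeR adjusted p 0.000887). QPCT, a glutaminyl cyclase, fell by 0.47 (edgeR adjusted p 0.0423), and that call was lost in all 6 omissions (edgeR adjusted p 0.0700 to 0.149). These were the 2 of 4 tested genes listed with CD47 that passed, while CD47 itself stayed within its spread. The other listed genes, QPCTL (-0.30, edgeR adjusted p 0.376) and CALR (0.18, edgeR adjusted p 0.162), did not pass. Of 12 tested neighbours of CD274 on chromosome 9, AK3 rose by 0.47 (edgeR adjusted p 0.00630) and the other 11 did not pass. CD24, THBS1 and AK3 kept their calls in all 6 omissions.

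Receptors for these ligands belong mainly to immune cells. Of 12 such receptor genes 4 were high enough to be tested and TNFRSF9 rose by 0.44 (edgeR adjusted p 0.0326), a call lost in 6 of 6 omissions (edgeR adjusted p 0.0528 to 0.152). Of 15 leukocyte markers 6 were tested and 0 passed, with 1 at an unadjusted p under 0.05. Their summed level was 38.4 to 44.7 CPM in the control and 29.1 to 34.95 CPM in clone 1, with 1 to 5 of the 15 at 0 counts in a library. Most of it came from CD68 and from CD14, which had 14.1 CPM in the control and 7.85 in clone 1, while PTPRC was at 1.22 and 1.19 CPM and NKG7 had 0 counts. The part of these markers in the differences of the members was not tested. In PLATE-seq the sum was 0 to 9.41 CPM, with 11 to 15 of the 15 at 0.

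In PLATE-seq 0 genes of any of these lists passed the edgeR test in any comparison. By the smallest p for the clone mean, HLA-E, an MHC class I protein that engages NKG2A, had a log2 fold change of 1.10 (edgeR adjusted p 0.231) among the ligands. It was 1.27 between the 2 control groups. Among the genes of CD274 transcription JAK1 had -0.86 (edgeR adjusted p 0.203) for the clone mean. That value ran from -1.11 to -0.60 over the 8 fits that left out 1 library, with -1.11 without clone 3 replicate 1. For clone 1 alone JAK1 had -0.76 in PLATE-seq (SE 0.34, edgeR adjusted p 0.554) and 0.01 in TruSeq (SE 0.06, edgeR adjusted p 0.948). The difference between these assays was not tested. MYC had 2.96 in clone 3 (edgeR adjusted p 0.0688) and 2.16 in clone 2 (edgeR adjusted p 0.343). In clone 3 it ran from 2.19 to 3.44 over the 4 fits that left out 1 library, and 3.44 was without replicate 1. Each of these fits left 1 library in a group, so only the effect sizes are given. With no filter on low counts the clone 3 value was 3.02 (edgeR adjusted p 0.0140). The MYC value of -0.34 in TruSeq was for clone 1 in another assay, and the difference from it was not tested.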

How the data were processed

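Read counts for 18 libraries of the breast cancer line MDA-MB-436 were analysed. The deposited values were raw counts for each gene symbol. The submitters' processing notes name STAR, HTSeq and hg38, and the authors' versions, annotation release and strand setting were not given in the sources used here. The TruSeq table held 57120 genes. The PLATE-seq table held 44359 entries, of which 92 spike-ins were left out.

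TruSeq and PLATE-seq were fitted separately in edgeR 4.0.16 (R 4.3.3), with filterByExpr (17371 and 8595 genes kept), TMM library sizes and group as the only term. The quasi-likelihood F test was two-sided, with Benjamini-Hochberg adjustment over all genes tested and a threshold of 0.05. The PLATE-seq groups were all in 1 fit (6 residual degrees of freedom, against 4 in TruSeq). Standard errors were derived from the F statistic. The fit was tested on simulated counts. Members removed by the filter were described by the ratio of summed counts with an exact 95% interval. Depth was 10257584 to 19270648 counts in TruSeq and 807861 to 3068887 in PLATE-seq, which limits the precision of the latter. Mitochondrial transcripts took 0.302% to 0.891% and 24.6% to 34.3% of counts.

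Coordinates and exon lengths came from GENCODE 29 by symbol, and promoter sequences from RefSeq. The text gives the members in each comparison, tested or by counts. Of each other list it names up to 6 genes past the threshold or, where 0 passed, may name the gene with the smallest p. It also names the 3 genes most like CD274 in TruSeq and CD276 in PLATE-seq, by Pearson r of log2(CPM + 0.5) over genes with a mean of at least 10 CPM. A few markers of the line and the copies of LGALS9 are named beside results that rest on them. Members and lists were chosen with earlier results of these data known. Alternatives were RLE size factors, DESeq2 1.42.0, no filter on low counts, the replicate number as a block, only the groups compared, the feature split in TruSeq, and leaving out each library.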

Additional observations from a re-analysis of the deposited data

How the results depend on the processing

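The count of members called moved under 1 alternative and stayed under the other 96. In TruSeq it was 1 to 2 as single libraries were left out, with 2 (CD70 and CD274) without knockout clone 1 replicate 1. CD70 kept its call under every alternative run in TruSeq, of which the fits within the libraries with more or fewer features compared 2 libraries with 1, the lone library being assumed to vary like the others. Of the fitted member changes 549 kept their direction and side of the threshold, 1 became a call (CD274, as above) and 42 changed sign, none of them past the threshold. Where leaving out single libraries changed a sign, the log2 fold changes ranged as follows. In TruSeq clone 1 these were CD47 -0.061 to 0.027, CMTM4 -0.050 to 0.28 and PDCD1LG2 -0.15 to 0.28. In the PLATE-seq clone mean these were CD274 -0.22 to 2.04, CD47 -0.36 to 0.055, CMTM4 -1.12 to 0.15 and CMTM6 -0.086 to 0.42. In PLATE-seq clone 1 these were CD274 -0.67 to 1.59, CD276 -0.26 to 0.53, CD47 -0.25 to 0.13, CMTM4 -0.37 to 0.90 and PVR -0.40 to 0.32. In clone 2 these were CD274 -0.17 to 2.09 and CD47 -0.94 to 0.15. In clone 3 these were CD276 -0.59 to 0.45 and CD47 -0.30 to 0.13. For siRNA against SMARCAL1 these were CD274 -1.65 to 0.29, CD47 -0.51 to 0.93 and CMTM6 -0.94 to 1.08. For the siRNA control against the control these were CD276 -1.82 to 0.13 and CMTM6 -1.27 to 0.75. For the clone mean less the siRNA change these were CD47 -1.07 to 0.37 and CMTM6 -0.85 to 1.17. Of the other settings, CD47 in TruSeq was 0.014 with no filter on low counts, 0.013 with a term for the side of the feature split and 0.11 within the 3 libraries with more features. CMTM4 in TruSeq was -0.015 with that term, -0.00055 within the 3 libraries with more features and -0.030 within the 3 with fewer. PVR in PLATE-seq clone 1 was -0.018 with RLE size factors and -0.016 with DESeq2, and CD276 in clone 3 was -0.015 with RLE size factors. The cause of these sign changes was not tested. Some TruSeq calls of list genes were also lost under other methods. DESeq2 ended those of QPCT (DESeq2 adjusted p 0.229), FOSL2 (0.0566) and TNFRSF9 (0.0689). RLE size factors ended those of LGALS3 (edgeR adjusted p 0.0526) and CUL3 (0.0504). The fit with no filter ended those of QPCT (edgeR adjusted p 0.160), FOSL2 (0.167), IFNGR1 (0.0532) and MYC (0.0687).

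The labels do not say what a replicate number marks. The correlations of same-numbered deviations ran from -0.27 to 0.57 in TruSeq, where not every library correlated best with its own number, and from -0.058 to 0.056 in PLATE-seq, although the spike-in share there differed between numbers 1 and 2. With the replicate number as a block the count of members called was unchanged in every comparison, PVR in PLATE-seq clone 1 was -0.0089 and CMTM6 in the siRNA control against the control was -0.024. The block moved the count of all genes called in TruSeq from 1089 to 2387.

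Counts of all genes called depended more on the setting. In TruSeq 1089 became 3793 with the term for the side of the feature split and 245 to 1157 as libraries were left out. In PLATE-seq, DESeq2 and the fit with no filter gave 46 and 83 for the clone mean in place of 17, 16 and 36 for clone 1 in place of 0, 30 and 61 for clone 2 in place of 3, 112 and 156 for clone 3 in place of 57, 147 and 230 among clones in place of 61, 1 and 22 for siRNA against SMARCAL1 in place of 0, 7 and 35 for the siRNA control against the control in place of 1, and 16 and 44 for the clone mean less the siRNA change in place of 0. With only the groups compared, clone 1 had 8, clone 2 had 1, clone 3 had 22, siRNA against SMARCAL1 had 1 and the siRNA control had 0. Leaving out single libraries gave 5 to 51 for the clone mean, 5 to 124 for clone 3, 11 to 121 among clones and at most 9 elsewhere. The fit with no filter moved the median log2 fold change of all genes to 0.14 for the clone mean and 0.24 for the clone mean less the siRNA change.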

Other observations

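The counts of the neighbouring genes CD274 and PDCD1LG2 were set against each other within each TruSeq library, a measure chosen after their values were seen. The ratio does not depend on library scaling. It was 1.23, 1.41 and 1.65 in the control libraries, by replicate number, against 0.870, 0.860 and 0.649 in those of knockout clone 1. All control libraries held more CD274 than PDCD1LG2 counts and all knockout libraries held fewer. An exact permutation test of the log2 ratios between the groups gave p = 0.1, the smallest value it can give with these libraries. Even full separation could therefore not reach a lower p, and the test cannot set this separation apart from chance. How often other pairs of genes separate in this way was not tested, so the separation is a description. The geometric means were 1.42 and 0.786, a log2 difference of -0.85. The difference ran from -0.95 to -0.71 as single libraries were left out, and was -0.60 within the 3 libraries with more features and -1.14 within the 3 with fewer. At 24 to 61 counts a library for CD274 and 37 to 46 for PDCD1LG2, counting error alone is a large part of each ratio.

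The levels of the members differed between the assays, which were normalized separately and differ in RNA selection and depth, so the values are set side by side without a test. CD274 was at 1.59 to 4.20 CPM in TruSeq and at a median of 10.8 CPM in PLATE-seq. CD276 was at 54.2 to 60.9 CPM in TruSeq and at a median of 7.95 CPM in PLATE-seq. CMTM6 was at 78.2 to 92.2 and a median of 20.3 CPM, and CD47 at 82.2 to 92.8 and a median of 164.5 CPM. CMTM4 was at 29.1 to 45.5 and a median of 7.42 CPM. PVR was at 49.7 to 63.9 and a median of 36.5 CPM. CD276, CMTM6 and CMTM4 were lower in every PLATE-seq library than in any TruSeq library, and CD47 was higher. In PLATE-seq CD274 ranged from 2.48 to 30.6 CPM and PVR from 23.4 to 63.2 CPM, and both overlapped their TruSeq ranges. The PLATE-seq values pool all its groups, with the siRNA groups included. Over the 12 PLATE-seq libraries the 3 genes most like CD276, among 6158 compared, were PARD3 (Pearson r of log2 CPM 0.870), UBE2C (0.869) and ZFHX2 (0.859). The libraries differ in depth, and these values are a description.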
